A study of Mus musculus with 10 samples.

Results

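Transcripts of 10 genes of the Notch pathway were followed in whole mouse liver: the receptors Notch1, Notch2, Notch3 and Notch4, the ligands Dll4, Jag1 and Jag2, and the target genes Hes1, Hey1 and Hey2. They were chosen by name, and all 10 were found among the 55385 gene IDs of the deposited tables. RNA from frozen, homogenised liver was sequenced on the BGISeq-500 platform in 5 control libraries and in 5 libraries whose titles carry the name Alk1-HEC-KO. Alk1 is another name of Acvrl1, the gene of an endothelial receptor for BMP ligands. The genotype labels read Ctrl and KO, and a strain, an age, a treatment or the promoter behind a knockout is not given in the sources used here. The titles number the libraries 1 to 5 in each group without saying that each came from its own animal, so a p-value measures the spread between these libraries, which may be partly technical.

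Notch receptors are membrane proteins that are cut when a ligand on a neighbouring cell binds them, and the released inner part enters the nucleus, where it joins the DNA-binding protein RBPJ and switches on target genes of the HES and HEY families. In blood vessels the pathway is known for arterial identity and for limiting sprouting, with NOTCH1 and NOTCH4 as endothelial receptors and DLL4 as the main endothelial ligand. NOTCH3 is best known from the mural cells that wrap vessels. In liver, JAG1 and NOTCH2 are required for bile duct formation, and their human genes are mutated in Alagille syndrome.

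The sequences before the start sites are shown for the target gene Hey2, for the endothelial ligand gene Dll4 and for the endothelial receptor gene Notch4, to set a target promoter beside those of a ligand and a receptor. A 250-base window before the annotated start was held for 8 of the 10 genes in the RefSeq table (GRCm38.p6), all but Hes1 and Hey1. It was searched on both strands for the RBPJ motif GTGGGAA and for the motif GGCGCC, which SMAD1 and SMAD5 bind. GGCGCC is its own reverse complement, and no match of one motif overlapped a match of the other in these windows. Of the 8 windows, 1 held the RBPJ motif, that of Hey2, where it lies on the opposite strand and begins 207 bases before the start, and none held GGCGCC. Among all 32851 windows of that length 5.42% held the RBPJ motif and 9.59% held GGCGCC. All 250 bases of the Jag2 window and 124 of those of the Jag1 window lie in annotated exons. For Jag2 no sequence outside exons was therefore searched. Only the longest stretch outside annotated exons is printed, 5′ to 3′ on the gene's strand, with the RBPJ match in capitals.
Hey2, chr10:30842802-30843033, minus strand: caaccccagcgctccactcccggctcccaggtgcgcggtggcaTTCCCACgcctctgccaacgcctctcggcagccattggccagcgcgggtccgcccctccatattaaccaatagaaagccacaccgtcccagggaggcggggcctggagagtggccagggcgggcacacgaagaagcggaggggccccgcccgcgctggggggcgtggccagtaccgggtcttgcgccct
Dll4, chr2:119325565-119325783, plus strand: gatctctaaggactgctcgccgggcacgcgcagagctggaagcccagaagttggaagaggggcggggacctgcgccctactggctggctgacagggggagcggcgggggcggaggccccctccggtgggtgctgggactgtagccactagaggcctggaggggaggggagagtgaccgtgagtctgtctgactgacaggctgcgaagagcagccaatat
Notch4, chr17:34564045-34564267, plus strand: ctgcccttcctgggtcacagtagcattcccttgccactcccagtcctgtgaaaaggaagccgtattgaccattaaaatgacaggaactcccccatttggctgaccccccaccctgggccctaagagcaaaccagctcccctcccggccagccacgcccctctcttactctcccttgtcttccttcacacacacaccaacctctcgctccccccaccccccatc

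The libraries held 20.91 to 21.56 M estimated counts each. Levels are given in TPM, a share of a library's transcripts that allows for their length, or in CPM, counts scaled to a common library size without regard to length. Acvrl1 was not lower under its label: its mean TPM was 0.669 ± 0.331 over the controls but 1.36 ± 0.331 over the Alk1-HEC-KO libraries (SD, n = 5). Its log2 fold change of 0.99 did not pass (edgeR, adjusted p = 0.34). The groups did not overlap in TPM but did in log2 CPM, with control library 1 at 1.47 and Alk1-HEC-KO library 2 at 1.43. The second group is therefore called labelled knockout, and each direction rests on the label. A sum over all exons cannot tell whether some of them were removed. Hepatocyte genes were abundant in all libraries: the summed level of 5 matched hepatocyte markers ran from 40370 to 73160 TPM in controls and from 42550 to 77210 TPM in labelled knockout libraries. Whole liver holds several cell types with Notch genes, and in bulk RNA fewer cells of a type and less RNA per cell cannot be told apart. Of 12 pan-endothelial markers 11 pointed higher in the labelled knockout libraries with a median log2 fold change of 0.70 and none passed, and their summed level ran from 33.6 to 57.8 TPM in controls and from 46.1 to 96.9 TPM in labelled knockout libraries, the highest being library 4. The 8 sinusoidal markers had a median of 0.12 with 5 higher and 3 lower, and of 6 tested arterial markers 5 pointed higher with a median of 0.66. All 6 Kupffer cell markers pointed higher (median 0.81; summed level 43.4 to 75.6 TPM in controls, 71.3 to 145.2 TPM in labelled knockout libraries), as did all 5 tested leukocyte markers (median 0.87; 19.3 to 31.7 TPM, then 30.6 to 89.9 TPM). No gene of these lists was at 0 in all libraries, and none was called. Labelled knockout library 4 was also the highest of all 10 libraries in the summed level of the mural, stellate, Kupffer, leukocyte and cholangiocyte lists, and the part of these cell types in the results below was not tested.

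Jag2, which encodes one of the Jagged ligands, was the 1 member called among the 8 that could be tested across all genes, and it rose in the labelled knockout libraries. Jag2 (ENSMUSG00000002799.6, chromosome 12, 112907819 to 112929776, minus strand, GRCm38) had 0, 2, 3, 1 and 1 counts in control libraries 1 to 5 and 21, 15, 22, 49 and 13 counts in labelled knockout libraries 1 to 5. Every labelled knockout library lay above every control. The totals were 7 and 120 counts, a ratio of 17.3 with a 95% exact binomial interval of 8.12 to 43.8, which covers counting error only. The fitted log2 fold change was 3.91 ± 0.60 (SE; edgeR, adjusted p = 0.0095 after Benjamini-Hochberg correction). Among all 12872 tested genes, 0.357% were called in either direction and 0.186% were called higher. Jag2 entered the test through its counts in the labelled knockout libraries alone, since no control reached 10 counts. Of 22 alternatives, 18 kept the call, and 4 lost it. With the run of numbers in the deposited names as a term the log2 fold change was 3.77 (edgeR, adjusted p = 0.19). Labelled knockout libraries 2, 4 and 5 share a run that holds no control, so they add nothing to the group difference in that fit. It rests there on the controls and labelled knockout libraries 1 and 3. Without the 3 libraries with Saa1 above 1000 TPM the log2 fold change was 3.46 (edgeR, adjusted p = 0.065, 7 libraries). Without the 2 with Fos above 20 TPM it was 3.63 (edgeR, adjusted p = 0.094, 8 libraries). With limma on log2(TPM + 1), a scale that understates changes of low genes, it was 0.44 (adjusted p = 0.071).

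In TPM, Jag2 stood at 0, 0.0222, 0.194, 0.0110 and 0.0101 in control libraries 1 to 5 and at 0.217, 0.390, 0.560, 0.607 and 0.336 in labelled knockout libraries 1 to 5. The groups did not overlap here either, but control library 3 came close to labelled knockout library 1. Of all tested genes 1.31% likewise had every labelled knockout library above every control in TPM, and 0.948% in log2 CPM. That control value of 0.194 TPM rests on 3 counts, while the 0.217 TPM of labelled knockout library 1 rests on 21. The number of counts behind 1 TPM of Jag2 was 15.5 in control library 3 and 96.6 in labelled knockout library 1. It differed by up to 6.39 times between the 9 libraries with at least 1 count. The gene has 10 annotated transcripts of 406 to 5106 bases. With an offset for this average length the log2 fold change of Jag2 was 4.12 (edgeR, adjusted p = 0.031).

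The other ligands did not pass. Dll4, the endothelial Delta-like ligand gene (ENSMUSG00000027314.6, chromosome 2, 119325784 to 119335962, plus strand), stood at 0.871, 0.965, 0.208, 0.655 and 0.628 TPM in control libraries 1 to 5 while labelled knockout libraries 1 to 5 stood at 1.33, 0.549, 1.57, 1.74 and 0.528 TPM. Labelled knockout libraries 1, 3 and 4 lay above every control and libraries 2 and 5 within their range. Its log2 fold change was 0.73 ± 0.39 (SE; edgeR, adjusted p = 0.66). Gm14207, annotated on the opposite strand across the start of Dll4, had 5 counts over the controls and 19 over the labelled knockout libraries, and because use of strand is not stated, reads of the pair cannot be told apart.

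Jag1, the Jagged ligand gene known from bile duct formation (ENSMUSG00000027276.7, chromosome 2, 137081456 to 137116644, minus strand), was at 0.397, 0.598, 0.467, 0.211 and 0.348 TPM in the controls while labelled knockout libraries 1 to 5 had 0.319, 0.261, 0.273, 0.382 and 0.287 TPM. All labelled knockout values lay within the control range. Its log2 fold change was -0.22 ± 0.33 (SE; edgeR, adjusted p = 0.88). The cholangiocyte markers Krt19 and Epcam, keratin and adhesion genes of bile ducts, averaged 0.504 and 0.432 TPM over the controls, and 0.430 and 0.387 TPM over the other group.

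**Figure D1:**
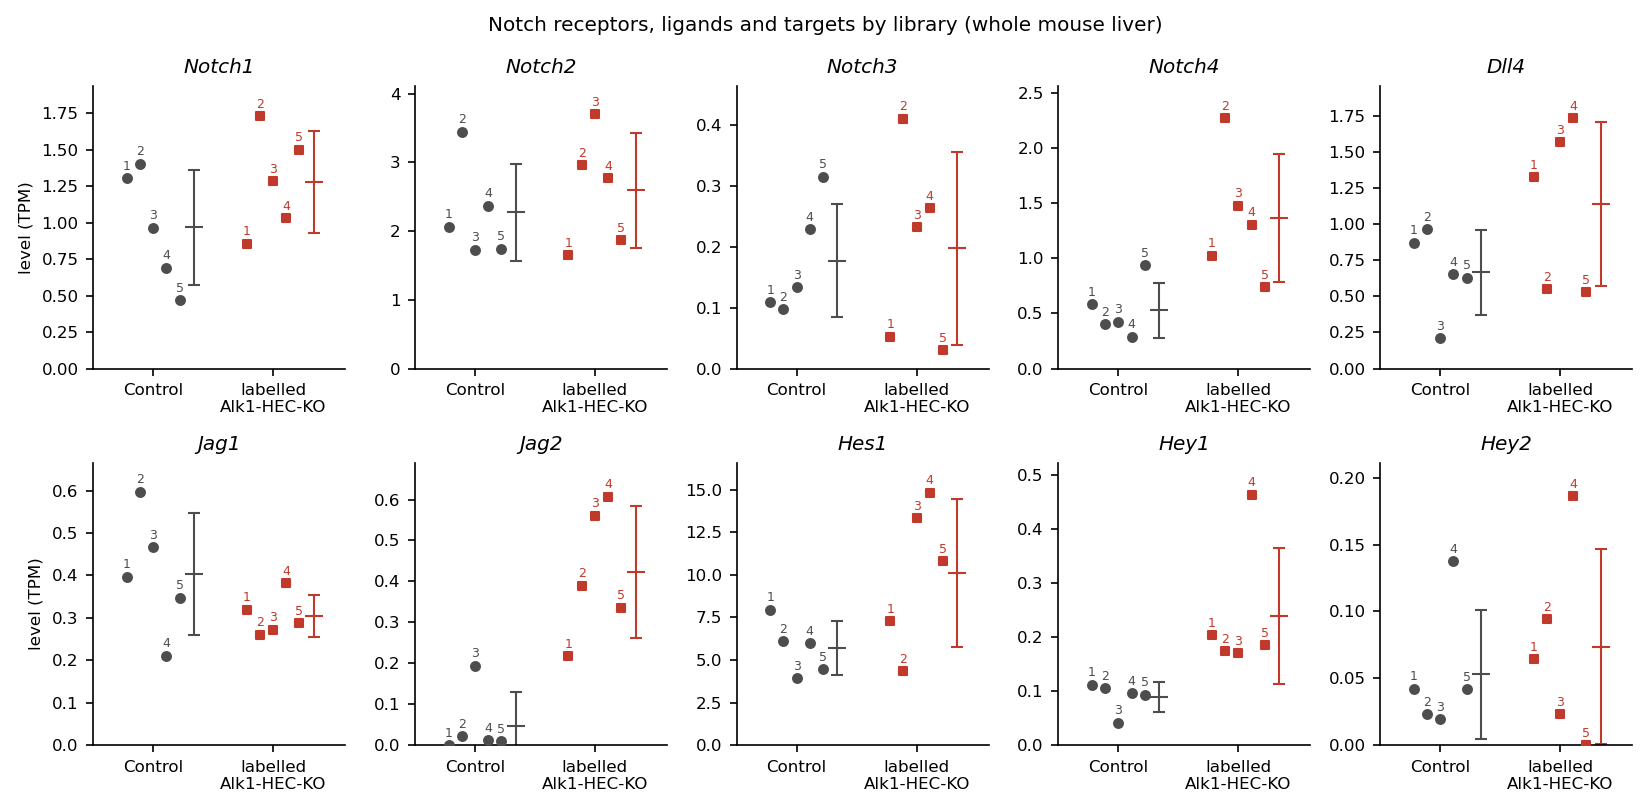
Level in TPM of each of the 10 genes, with 1 point per library (grey circles, control; red squares, labelled Alk1-HEC-KO; the numbers are the library numbers) and the mean with SD (n = 5) at the right of each group; bars are not drawn below 0. Jag2 and Hey1 are the panels in which the groups do not overlap, with control library 3 at 0.194 TPM just under the lowest labelled knockout value of Jag2, 0.217 TPM.

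Among the 3 ligands, the share of Jag2 was higher and that of Jag1 lower in the labelled knockout libraries. Within a library, Jag2 took 0%, 1.40%, 22.3%, 1.26% and 1.03% of the summed TPM of Dll4, Jag1 and Jag2 in control libraries 1 to 5, and 11.7%, 32.5%, 23.4%, 22.3% and 29.2% in labelled knockout libraries 1 to 5. Only control library 3 reached the labelled knockout range. The mean share of Jag2 was 5.20% ± 9.58 in controls and 23.8% ± 7.97 in labelled knockout libraries (SD, n = 5; exact two-sided permutation p = 0.024). The share of Jag1 was 36.4% ± 10.98 and 17.8% ± 5.53 (SD, n = 5; exact two-sided permutation p = 0.016), with 1 overlap, labelled knockout library 5 at 24.9% above control library 4 at 24.0%. Dll4 was the largest share in both groups with means of 58.4% and 58.4% (exact permutation p = 0.99). Shares in a library sum to 100%, so they are not independent of each other. The share of Jag2 rests on the same values as its call and is no separate evidence. Jag1 itself did not pass (log2 fold change -0.22; edgeR, adjusted p = 0.88), so its lower share does not show a lower level of Jag1. In all, 10 shares and ratios within libraries were compared and their p-values are not adjusted for that number. In CPM in place of TPM, the shares of Jag2 and Jag1 differed by 15.5 and -17.3 percentage points (exact permutation p = 0.0079 and 0.048).

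None of the 4 receptors passed, and all 4 pointed higher. Notch4, an endothelial receptor gene (ENSMUSG00000015468.14, chromosome 17, 34564268 to 34588503, plus strand), had 43, 47, 21, 34 and 35 counts in control libraries 1 to 5 and 75, 49, 74, 141 and 49 counts in labelled knockout libraries 1 to 5. Every labelled knockout count was above every control count, while after scaling to the libraries' effective size labelled knockout library 2, at 2.09 CPM, lay just under the highest controls at 2.09 and 2.10. Its log2 fold change was 1.05 ± 0.30 (SE; edgeR, unadjusted p = 0.0041, adjusted p = 0.28), and 8.44% of all tested genes had an unadjusted p under 0.05. Of the 12 pan-endothelial markers 11 pointed the same way and none passed, with a median log2 fold change of 0.70. Their log2 fold changes ran from -0.05 (Ptprb) to 1.10 (Robo4), with Pecam1 and Cdh5 at 1.02 and 0.84. Levels of Notch4 relative to these markers are given further below, and whether the markers account for its value was not tested.

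The TPM of Notch4 were 0.585, 0.401, 0.425, 0.289 and 0.936 in control libraries 1 to 5 and 1.02, 2.27, 1.48, 1.31 and 0.740 in labelled knockout libraries 1 to 5. The order of libraries was not that of the counts: labelled knockout library 2 was highest in TPM from 49 counts, above library 4 with 141 counts. The counts behind 1 TPM ran from 21.6 to 118, a factor of 5.47, for a gene with 12 annotated transcripts of 247 to 6591 bases. For Notch3 that factor was 4.81, and for Notch1, Notch2, Dll4 and Hes1 it was at most 1.29.

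Notch1, the other main endothelial receptor gene (ENSMUSG00000026923.15, chromosome 2, 26457903 to 26516663, minus strand), stood at 1.30, 1.41, 0.966, 0.691 and 0.469 TPM in control libraries 1 to 5, against 0.855, 1.73, 1.28, 1.03 and 1.499 TPM in labelled knockout libraries 1 to 5. The groups overlapped widely, with controls 1 and 2 above 3 of the labelled knockout libraries. Its log2 fold change was 0.45 ± 0.27 (SE; edgeR, adjusted p = 0.69). The strand limit given for Dll4 also holds for Notch1, which 0610009E02Rik (127 counts over the controls, 137 over the labelled knockout libraries) and Gm13568 (37 and 27) overlap on the opposite strand, and for Notch3, overlapped by Gm17276 (7 and 2). Notch2, the receptor gene known from the bile duct (ENSMUSG00000027878.11, chromosome 3, 98013527 to 98150361, plus strand), stood at 2.06, 3.45, 1.73, 2.37 and 1.75 TPM in control libraries 1 to 5, against 1.65, 2.96, 3.70, 2.77 and 1.87 TPM in labelled knockout libraries 1 to 5. It averaged 2.27 ± 0.707 (controls) and 2.59 ± 0.836 TPM (labelled knockout; SD, n = 5). It was the most abundant receptor in all 10 libraries, and its log2 fold change of 0.12 was smaller than its standard error of 0.18 (edgeR, adjusted p = 0.89).

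Notch3, the mural cell receptor gene (ENSMUSG00000038146.8, chromosome 17, 32120820 to 32166852, minus strand), had 17, 14, 9, 8 and 13 counts in control libraries 1 to 5 and 8, 25, 29, 42 and 5 counts in labelled knockout libraries 1 to 5. The labelled knockout group held the highest counts (libraries 2, 3 and 4) and the lowest (library 5). The log2 fold change was 0.74 ± 0.49 (SE; edgeR, adjusted p = 0.72). It was 0.05 with an offset for average transcript length and -0.02 with limma on log2(TPM + 0.1), so no direction can be given. Among 6 tested mural markers 4 pointed higher and 2 lower, and none passed. Rgs5, a pericyte gene, had a log2 fold change of 0.81 (edgeR, unadjusted p = 0.0042, adjusted p = 0.28). Its groups did not overlap in TPM, as in 1.31% of all tested genes in this direction. They overlapped in log2 CPM, with control library 3 at 4.30 above labelled knockout libraries 2 and 3 at 4.22 and 4.04. The 2 mural markers that pointed lower, the contractile genes Acta2 and Myh11, rested on control library 1, with 245 and 200 counts where the other controls had 21 to 40 and 13 to 28. Their median levels were 0.876 and 0.211 TPM in controls, and 0.871 and 0.204 TPM in labelled knockout libraries.

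By share of the summed receptor TPM, Notch2 held 57.0% ± 7.71 in controls and 47.7% ± 5.88 in labelled knockout libraries (SD, n = 5; exact two-sided permutation p = 0.079). Notch4 held 14.0% ± 7.87 and 24.7% ± 5.15 (SD, n = 5; exact two-sided permutation p = 0.048), with the groups overlapping through control library 5 at 27.0%. The difference in the share of Notch4 was 10.7 percentage points in TPM and 3.91 in CPM (exact permutation p = 0.063), and it passed without 3 of the 10 libraries left out in turn and failed without the other 7. Notch1 held 24.2% and 24.4% (exact permutation p = 1.0). Notch3 held 4.82% and 3.23% (exact permutation p = 0.36).

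**Figure D2:**
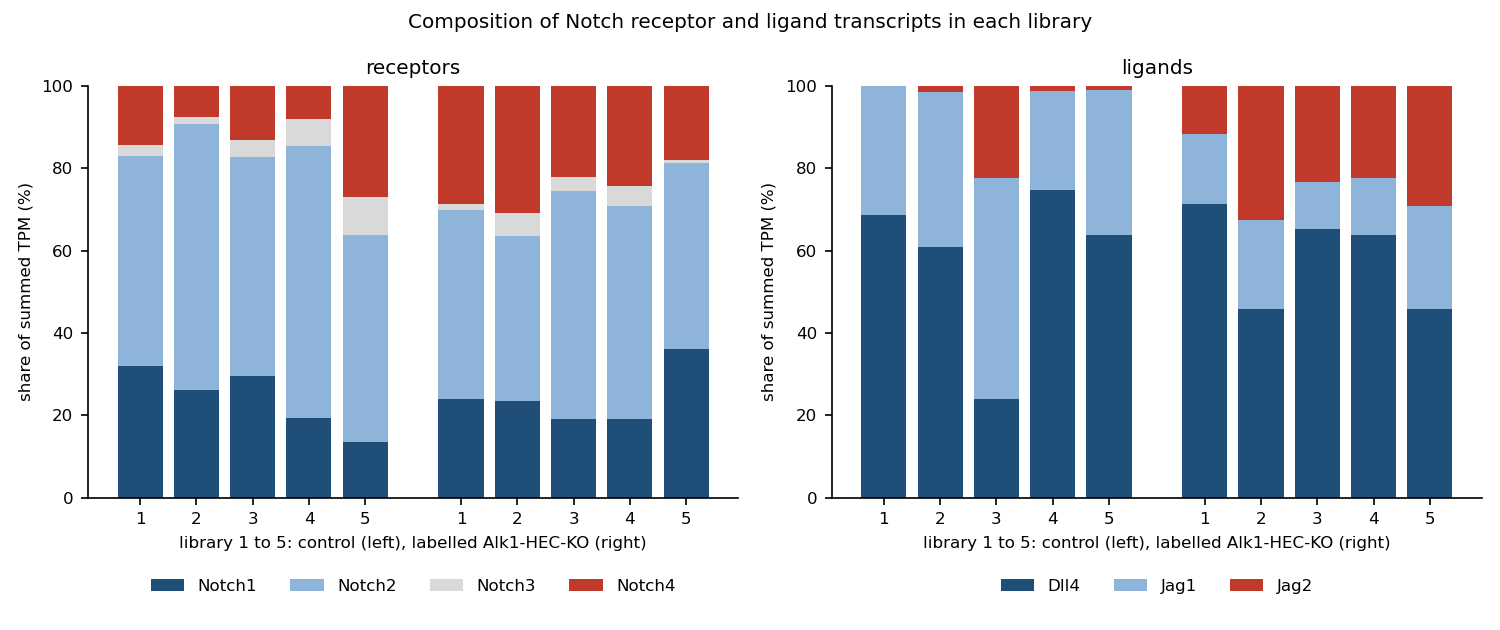
Share in percent of each receptor in the summed TPM of the 4 receptors (left) and of each ligand in that of Dll4, Jag1 and Jag2 (right), with 1 bar per library in each group. Notch2 is the largest receptor share in every library; Jag2 is 11.7% or more in the labelled knockout libraries and at most 1.40% in every control other than library 3, at 22.3%.

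Because Notch1, Notch4 and Dll4 are known mainly from endothelium, each was also read against endothelial markers of its own library, as its log2 CPM minus the mean of the 12 pan-endothelial markers. Relative to them Notch4 was -2.15 ± 0.318 in controls and -1.77 ± 0.182 in labelled knockout libraries (SD, n = 5), a difference of 0.38 (exact two-sided permutation p = 0.056). Against the 8 sinusoidal markers the difference was 0.88 (exact permutation p = 0.0079), and against Pecam1 and Cdh5 alone it was 0.03 (p = 0.90). The value of Notch4 therefore depended on which endothelial genes it was set against. Dll4 differed by 0.09 (exact permutation p = 0.80) and Notch1 by -0.07 (p = 0.91), with standard deviations of 0.395 to 0.736 within the groups. Both changed sign with the reference: against sinusoidal markers Notch1 differed by 0.43 (exact permutation p = 0.31), and against Pecam1 and Cdh5 Dll4 differed by -0.26 (p = 0.48).

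**Figure D3:**
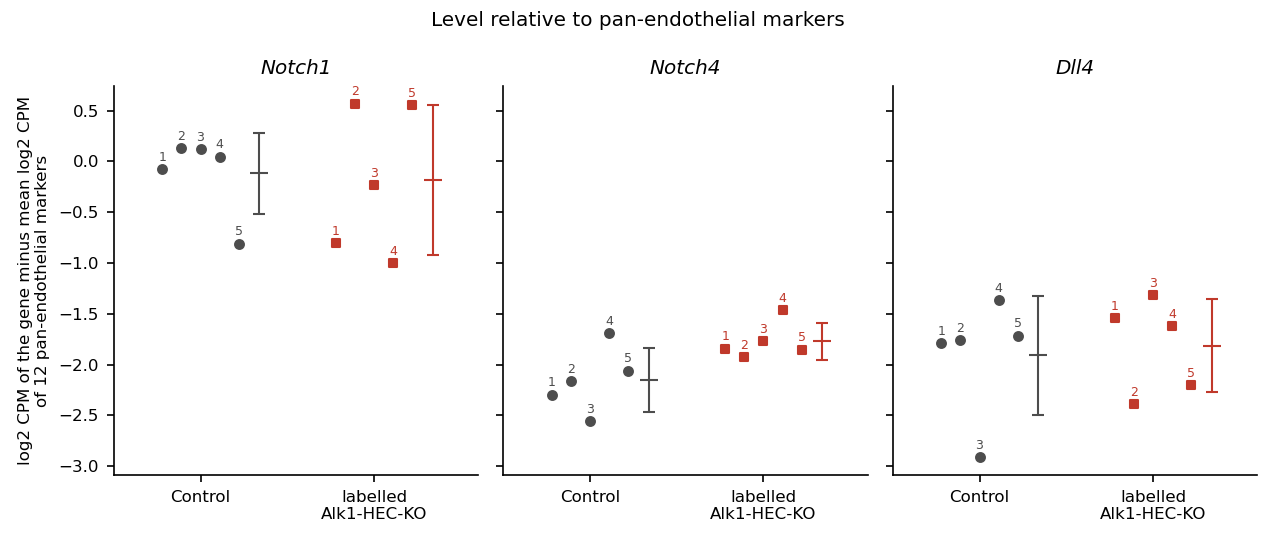
Log2 CPM of Notch1, Notch4 and Dll4 minus the mean of 12 pan-endothelial markers in the same library, with 1 point per library and the mean with SD (n = 5). The groups overlap in all 3 panels, with mean differences of -0.07, 0.38 and 0.09.

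Of the target genes, Hes1 did not pass and Hey1 and Hey2 had too few counts for the test across genes. Hes1, a repressor gene switched on by Notch in many tissues (ENSMUSG00000022528.8, chromosome 16, 30064384 to 30067796, plus strand), stood at 7.96, 6.13, 3.94, 5.99 and 4.44 TPM in control libraries 1 to 5, against 7.27, 4.33, 13.3, 14.8 and 10.8 TPM in labelled knockout libraries 1 to 5. Labelled knockout libraries 3, 4 and 5 lay above every control, and libraries 1 and 2 within the control range. The log2 fold change was 0.74 ± 0.31 (SE; edgeR, unadjusted p = 0.033, adjusted p = 0.55). Without the 3 libraries with Saa1 above 1000 TPM, which include labelled knockout libraries 4 and 5, it was 0.33. Saa1 is an acute phase gene.

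Hey1, a target gene of Notch and of BMP signals in endothelium (ENSMUSG00000040289.8, chromosome 3, 8663359 to 8667256, minus strand), had 5, 3, 2, 4 and 4 counts in control libraries 1 to 5 and 9, 7, 7, 16 and 9 in labelled knockout libraries 1 to 5. In TPM these were 0.112, 0.105, 0.0413, 0.0967 and 0.0933 against 0.204, 0.174, 0.171, 0.464 and 0.186, without overlap. The totals of 18 and 48 counts gave a ratio of 2.68 (95% exact binomial interval of counting 1.53 to 4.90). The mean TPM differed with an exact two-sided permutation p of 0.0079, the smallest that 5 against 5 libraries can give. Of the 5606 genes outside the test with at least 10 counts, 1.14% likewise had every labelled knockout library above every control in TPM. Without control libraries 1 and 2, those with Fos above 20 TPM, the mean of Hey1 differed by 0.163 TPM and did not pass (exact permutation p = 0.054).

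Hey2, the family member known for arterial identity (ENSMUSG00000019789.9, chromosome 10, 30832359 to 30842801, minus strand), had 2, 1, 1, 6 and 2 counts in control libraries 1 to 5 and 3, 4, 1, 9 and 0 in labelled knockout libraries 1 to 5. The totals of 12 and 17 counts gave a ratio of 1.43 with a 95% exact binomial interval of 0.641 to 3.27, so no difference was detectable at this depth (exact permutation p = 0.58 on TPM).

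Together, 8 of the 10 genes were tested across all genes. Of these 1 was called, 7 pointed higher and 1 lower. The 7 include Notch3, for which no direction can be given, and Notch2, whose change was smaller than its standard error. The median log2 fold change of the 8 was 0.73, beside 0.00 over all 12872 tested genes, of which 6483 pointed higher and 6389 lower. The arterial, pan-endothelial, Kupffer and leukocyte marker lists had medians of 0.66, 0.70, 0.81 and 0.87. Those of the sinusoidal, mural, stellate, cholangiocyte and hepatocyte lists ran from 0.08 to 0.18. With total counts as the one scaling, the median of all tested genes was 0.07 and the directions of the 8 members were the same. In labelled knockout library 4, whose markers of several cell types were highest, Jag2, Hes1, Hey1, Hey2 and Dll4 were also at their highest TPM of all 10 libraries. Without that library the log2 fold changes of Jag2, Notch4, Dll4 and Hes1 were 3.49, 0.73, 0.51 and 0.54.

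The rest of the pathway was read from the same fit with 36 further genes, of which 31 were tested. None of the 31 was called, where 0.357% of all tested genes were. Of them 18 pointed higher and 13 lower (median log2 fold change 0.04), and 1 had an unadjusted p under 0.05. That gene was Mfng, which encodes a fringe glycosyltransferase that modifies Notch receptors. Mfng had 12, 18, 13, 7 and 15 counts in control libraries 1 to 5 and 32, 22, 28, 57 and 26 in labelled knockout libraries 1 to 5, without overlap also in log2 CPM. Its log2 fold change was 1.27 ± 0.35 (SE), the largest of the 31 (edgeR, unadjusted p = 0.0027, adjusted p = 0.26). Over all tested genes 0.948% had every labelled knockout library above every control in log2 CPM.

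By role, the 5 glycosyltransferases had a median log2 fold change of 0.27, and the most abundant of them, Rfng, another fringe gene, averaged 10.3 ± 1.78 (controls) and 11.3 ± 2.89 TPM (labelled knockout; SD, n = 5). The 10 proteases that cut the receptors had a median of 0.04, with the presenilin gene Psen2 the most abundant at 144 ± 23.5 and 160 ± 28.3 TPM (SD, n = 5). Aph1b and Aph1c, close copies whose reads may be shared, had log2 fold changes of 0.80 and 0.42 with standard errors of 0.50 and 0.43. The 6 genes of the nuclear complex had a median of -0.07. Rbpj, the DNA-binding partner itself, had a log2 fold change of -0.01 ± 0.16 (SE), and the most abundant, the coactivator gene Snw1, of -0.20 with a standard error of 0.13.

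The 4 inhibitor genes had a median of -0.09, and the most abundant of them, the ubiquitin ligase gene Itch, had a log2 fold change of -0.21 ± 0.17 (SE). The 2 tested ligand ubiquitin ligases, Mib1 and Mib2, which act in the ligand-bearing cell, were at -0.16 and 0.01, and Mib1 was the more abundant. Dll1, a further Delta-like ligand gene, had the lowest log2 fold change of the 31, -0.27 with a standard error of 0.35. At 1.46 ± 0.775 (controls) and 1.24 ± 0.605 TPM (labelled knockout; SD, n = 5) Dll1 was more abundant on average than Dll4, Jag1 or Jag2 in either group. The 3 tested further targets all pointed higher with a median of 0.47, and none passed. Of these, Dtx1, Heyl and Nrarp had log2 fold changes of 0.34, 0.47 and 0.90 with standard errors of 0.32, 0.35 and 0.54, and Dtx1 was the most abundant by its mean over all libraries. Nrarp, a feedback gene of the pathway, had 10, 15, 5, 14 and 11 counts in the controls and 29, 5, 50, 14 and 9 in labelled knockout libraries 1 to 5, so that libraries 1 and 3 alone lay above every control. Hes5, Hes7 and Dll3 had 1, 9 and 2 counts over all 10 libraries.

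**Figure D4:**
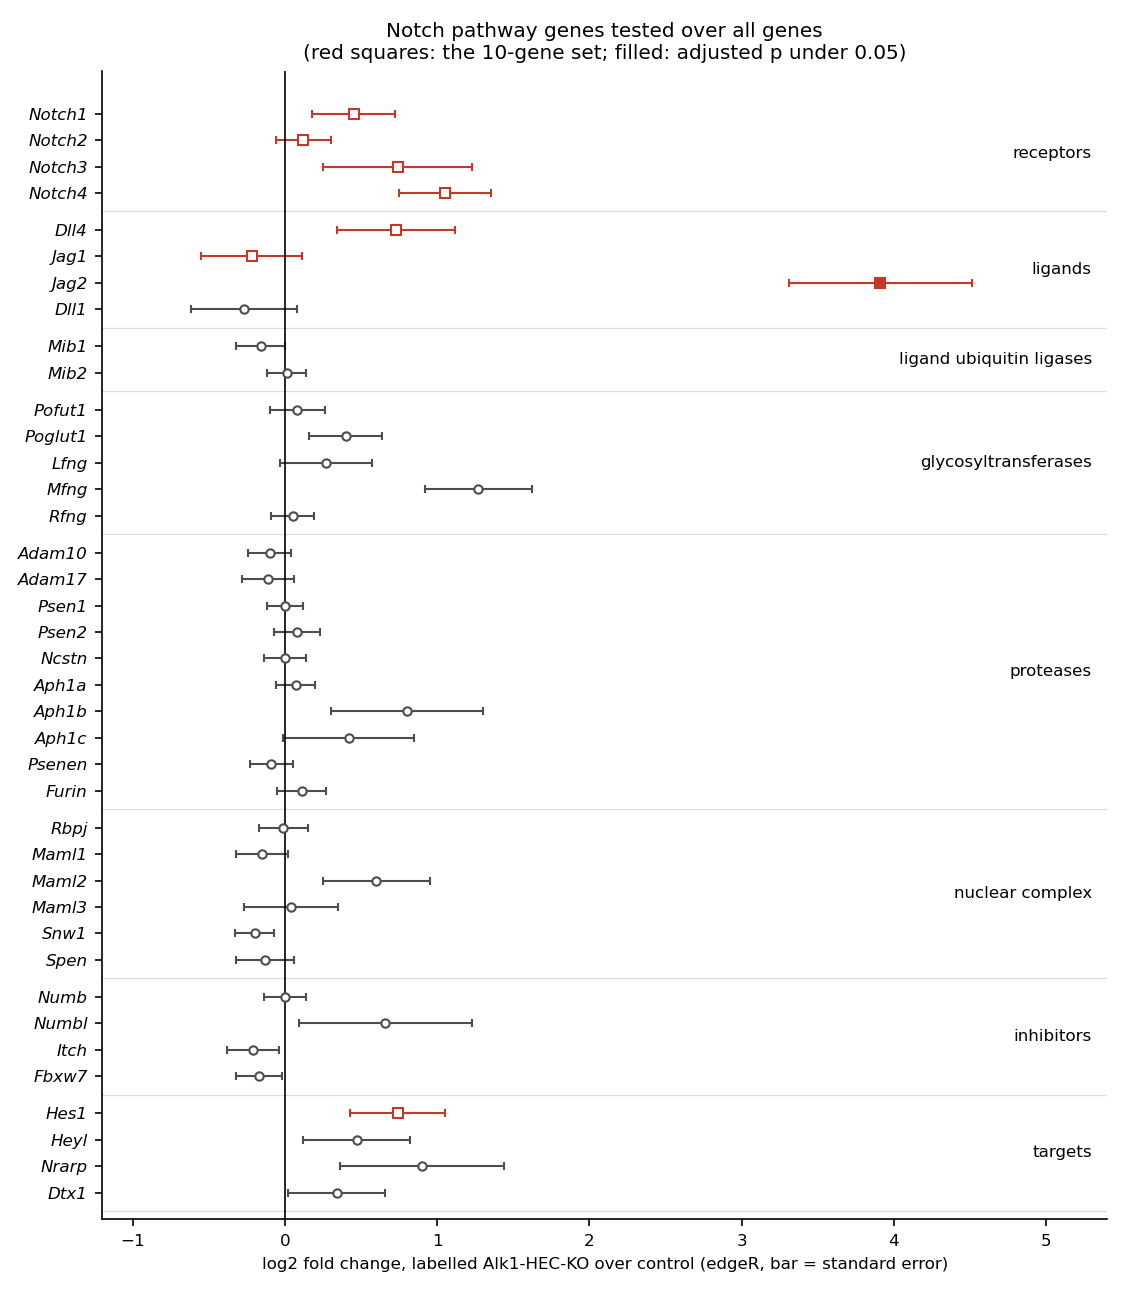
Log2 fold change of labelled knockout over control libraries (edgeR, bar = standard error) for the 8 tested members (red squares) and 31 other tested pathway genes (grey circles), grouped by role; a filled symbol has an adjusted p under 0.05. Jag2 at 3.91 is the one filled symbol, and the others lie between -0.27 and 1.27.

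Ordered by mean TPM in controls, the 10 genes ran Hes1, Notch2, Notch1, Dll4, Notch4, Jag1, Notch3, Hey1, Hey2 and Jag2. Hes1 lay above Notch2, and Notch2 above Notch1, in 5 of 5 controls without overlap, and the ranges of all later neighbours overlapped. In the labelled knockout libraries the order was Hes1, Notch2, Notch4, Notch1, Dll4, Jag2, Jag1, Hey1, Notch3 and Hey2, and Hes1 and Notch2 were the 1 pair of neighbours whose ranges did not overlap. Jag2 thus stood last in controls and above Jag1 in 4 of 5 labelled knockout libraries.

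Genes with the most similar pattern were found as those with the smallest mean absolute difference from a member in standardized log2 CPM over the 10 libraries, a likeness in which a shared group difference and shared library features both count. For Jag2 these were Fam198b, Apln and Nxpe4, at 0.227, 0.232 and 0.276 standard deviations. All 3 were called higher like Jag2 (edgeR, adjusted p = 0.0095, 0.0065 and 0.022), where 0.186% of all tested genes were. They were picked for likeness to a gene whose groups do not overlap, so these calls add no evidence of their own. For Notch4 they were Itga9, Afap1l1 and Fscn1, at 0.142, 0.162 and 0.218, and for Hes1 Pik3c2b, Id3 and Cd48, at 0.208, 0.252 and 0.275. Dll4 was nearest to Ccdc8, Abcg1 and Dusp7, at 0.306, 0.321 and 0.349. For Notch1, Notch2, Notch3 and Jag1 the nearest genes were Rnd1, Prr12, Asap1 and 9130002K18Rik, at 0.267, 0.258, 0.364 and 0.251.

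The numbers in the deposited names fall into 3 runs, whose meaning the labels do not give, and the third run holds labelled knockout libraries alone. Within the first run, Jag2 was at 0.0447 CPM in 2 controls and at 0.965 in 1 labelled knockout library, and within the second at 0.0860 in 3 controls and 0.980 in 1 labelled knockout library. The same direction held in both runs for Notch4 (2.10 and 3.45, then 1.46 and 3.30), Dll4 (2.92 and 4.28, then 1.67 and 4.54) and Hey1 (0.189 and 0.414, then 0.162 and 0.312). Notch1 was lower in the labelled knockout library of the first run (10.4 and 7.17 CPM) and higher in that of the second (5.79 and 9.71), and Notch2 likewise (24.9 and 15.4, then 19.6 and 31.0). Hes1 stood at 7.79 and 7.999 in the first run and at 5.88 and 12.8 in the second. With the run as a term, the log2 fold changes of Jag2, Notch4, Dll4, Hes1 and Notch1 were 3.77, 0.96, 1.04, 0.65 and 0.19. None passed (edgeR, adjusted p = 0.19 for Jag2), while 5 of all tested genes did. The third run holds no control, so its libraries add nothing to the group difference in that fit, which has less power for that reason.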

How the data were processed

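Per the submitters' processing notes, reads were trimmed with Trim Galore 0.6.4 and quantified with kallisto 0.4.6 on the mouse build GRCm38.p6; how transcripts were brought to genes and whether strand was used is not given in the sources used here. The authors deposited estimated counts and TPM per gene for each library. Of the nonzero estimated counts 38.3% were whole within 1e-06, and each value was rounded before testing. Symbols matched 55144 of 55385 IDs.

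Genes were filtered with filterByExpr of edgeR 4.0.16 (R 4.3.3; minimum count 10), which left 12872, scaled by TMM (factors 0.869 to 1.107) and tested with its quasi-likelihood test, robust, with group as the only term; Benjamini-Hochberg adjustment ran over all tested genes and a gene was called at an adjusted p under 0.05. Standard errors were derived from the F value. Single values were compared by exact two-sided permutation of the difference of means (SciPy 1.17.1). In simulated counts of 5 against 5 libraries over 12677 genes, edgeR recovered 18%, 64%, 92% and 88% of genes changed 1.5-, 2-, 4- and 8-fold, with 11 false among 142 calls. The changed genes were drawn at random whatever their level, so these percentages need not hold for members with few counts, such as Notch3 and Jag1. Alternatives used limma 3.58.1, DESeq2 1.42.0, other scalings, filters and left-out libraries; the offset for transcript length and the removal of high-Saa1 (over 1000 TPM) or high-Fos (over 20 TPM) libraries were chosen after seeing the data.

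The members, lists and tests were chosen with earlier results of these data known. Named were all members, Acvrl1, and of the other pathway genes those called, those without overlap in log2 CPM, the most abundant of each role, the largest log2 fold change in each direction, and the 3 genes most like each tested member. The overlapping genes and Aph1b, Aph1c, Mib2, Rbpj, Heyl, Nrarp, Hes5, Hes7 and Dll3 and the marker genes were named after their values were seen. Of the marker lists 1 gene, Tf, had no match.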

Additional observations from a re-analysis of the deposited data

Results flagged for a closer look

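In 40 groups of 5 libraries (10 genes in TPM, and 10 shares or ratios, in each group) the library farthest out was compared with the others by Dixon's ratio, which chance exceeds in about 1 group of 20. The ratio was exceeded 9 times. Control library 3 gave 5 of these: it was high in Jag2 (0.194 TPM) and in the share of Jag2 among the ligands (22.3%), and low in Hey1 (0.0413 TPM), in the share of Dll4 (24.0%) and in Dll4 relative to pan-endothelial markers (-2.91 on the log2 scale). This library had the highest share of mitochondrial counts, 16.6%, and its Jag2 value rests on 3 counts. Labelled knockout library 4 was high in Hey1 (0.464 TPM, from 16 counts), and control library 4 in Hey2 (0.137 TPM, from 6 counts). Labelled knockout library 5 had a high share of Notch1 among the receptors (36.2%), and control library 5 a low level of Notch1 relative to pan-endothelial markers (-0.81).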

How the results depend on the processing

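The count of members called was 1. It fell to 0 with the run of deposited names as a term, a fit in which the third run adds nothing to the group difference. It was also 0 with limma on log2(TPM + 1), and without the libraries with Saa1 above 1000 TPM or with Fos above 20 TPM, which leave 7 and 8 libraries. Leaving out each library in turn kept it at 1. With the replicate number as a block it was 1, Jag2 (edgeR, adjusted p = 0.032), and 40 genes in all were called in place of 46. Whether the numbers pair the libraries is not stated in the titles. Deviations of same-numbered libraries correlated at 0.28, 0.08, -0.1, -0.04 and 0.11, and 2 of 5 controls correlated best with their own number. These few values cannot decide it. No alternative called another pathway gene. DESeq2 called 152 genes in all, the fit with no filter 119, the run term 5, and the fits without libraries with Fos above 20 TPM or Saa1 above 1000 TPM 17 and 30; without labelled knockout library 1, 83 genes were called.

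Without each library in turn, differences in shares ran from 9.09 to 14.0 percentage points for Notch4 (exact permutation p from 0.016 to 0.087), from -11.2 to -7.02 for Notch2, from -2.75 to 2.18 for Notch1, from -8.63 to 4.06 for Dll4, from -21.7 to -14.2 for Jag1 and from 16.4 to 22.9 for Jag2. In CPM the shares differed by -8.30 for Notch2 (exact permutation p = 0.016, now past the threshold), 0.52 for Notch3 and 1.75 for Dll4, both reversed, and 3.91 for Notch4, which no longer passed. Relative to pan-endothelial markers, Notch1 ran from -0.25 to 0.14, Dll4 from -0.16 to 0.24 and Notch4 from 0.28 to 0.50 without each library; with sinusoidal markers Notch1 was 0.43 and Notch4 0.88, with Pecam1 and Cdh5 Dll4 was -0.26. Hey1 differed by 0.163 TPM without the high-Fos libraries (exact permutation p = 0.054, no longer past the threshold) and by 0.0941 to 0.167 TPM without each library in turn, and Hey2 by -0.0074 to 0.042 TPM without each library, and Hey2 by -0.0042 in log2 CPM. The log2 fold change of Notch2 ran from -0.000273 (without labelled knockout library 3) to 0.261 (without control library 2), that of Notch3 was -0.0222 with limma on log2(TPM + 0.1) and that of Jag1 was 0.18 without the libraries with high Fos. Jag2 rests on 7 and 120 counts per group, Hey1 on 18 and 48 and Hey2 on 12 and 17, which limits their precision.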

Other observations

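Sox9, a transcription factor gene of bile duct cells that is also known as a target of Notch there, was chosen after its values were seen. It had 47, 71, 43, 59 and 57 counts in control libraries 1 to 5 and 100, 56, 133, 176 and 166 in labelled knockout libraries 1 to 5, with library 2 within the control range and the other 4 above it. Its log2 fold change of 1.16 did not pass (edgeR, adjusted p = 0.19). Of other bile duct genes, Epcam and Spp1 had log2 fold changes of -0.32 and 0.09.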
